A study of Mus musculus with 30 samples.

Results

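The comparison described here set the fracture callus of lean mice on day 10 (d10) post-fracture against that on day 3 (d3), across all genes of the count table. It rested on 6 of the 30 RNA-seq libraries of the series, the 3 lean d10 libraries and the 3 lean d3 libraries, which were assigned by diet and day from the sample labels. The comparison and the gene lists used below were chosen with earlier results of these data known, so the list counts are descriptions. The study followed callus gene expression in lean and diet-induced obese (DIO) mice at several days after fracture. Lean mice were male C57BL/6J fed a lean diet, DIO mice were of the same strain and sex but fed a high-fat diet, and both were 20 weeks old at surgery. All groups shared the same injury, an open tibial fracture osteotomy of the right hindlimb held by an intramedullary nail, so that the d3 callus and not unfractured bone was the baseline. Each library came from the whole callus of 1 mouse, snap-frozen, and was prepared as stranded polyA-selected mRNA.

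A tibial fracture held by a nail heals largely through endochondral ossification. A hematoma filled with neutrophils and monocytes forms first, periosteal and marrow progenitors then divide and become chondrocytes that build a cartilage template, and these chondrocytes enlarge, switch to collagen X and give way to mineralized bone. Osteoclasts and vessels arrive as the calcified cartilage is removed. On d3 the callus is in its inflammatory phase, and by d10 it holds soft callus whose chondrocytes are becoming hypertrophic.

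Between d3 and d10 the lean callus gained transcripts of cartilage, bone matrix and osteoclasts and lost transcripts of neutrophils, inflammatory monocytes, chemokines and dividing cells. Of 16471 genes tested, 4825 passed the edgeR quasi-likelihood test at an adjusted p of 0.05, which is 29.3% of genes. On d10, 2508 of them were higher (15.2% of genes tested) and 2317 were lower (14.1%). The fitted change was at least 2-fold for 989 of the higher and 1388 of the lower genes, and at least 16-fold for 65 and 34 genes. These folds are estimates, and a test against a 1.5-fold change called 634 genes higher and 814 lower. The median log2 fold change over all genes tested was 0.02. The d3 and d10 values did not overlap for 7065 of the 16471 genes tested and for 4687 of the 4825 called. Separate groups, as given for single genes below, were thus common over all genes. Levels below are in CPM, counts divided by the scaled library size and multiplied by 1e6, given for replicates 1, 2 and 3 of each day in that order. Fold changes are d10 over d3 on the log2 scale, ± standard error, a gene was called where its adjusted p was under 0.05, and p-values measure the spread between mice.

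The 6 libraries held 15777919 to 26365620 counts, within the range of 13247122 to 26365620 over all 30, and no pair of same-day replicates agreed within sampling noise. One library, d10 replicate 1, stood apart from the other d10 libraries. On the first principal component of the 12 lean libraries, which held 43.2% of the variance, its score was 125, against 37.9 and 50.2 for d10 replicates 2 and 3 and −64.7 to −34.6 for the d3 libraries. It held the highest cartilage levels and the lowest levels of muscle, neutrophil and erythroid transcripts. The summed level of the 22 adult skeletal muscle genes was 1914 CPM in it, against 25767 and 18120.0 CPM in d10 replicates 2 and 3 and 12375 to 21020 CPM on d3. The library d3 replicate 2 held the highest levels of neutrophil, erythroid and B-lineage genes among the d3 libraries. In RNA from whole callus, fewer cells of a type and less RNA per cell cannot be told apart, and the part of tissue composition in the results below was not tested.

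**Figure D1:**
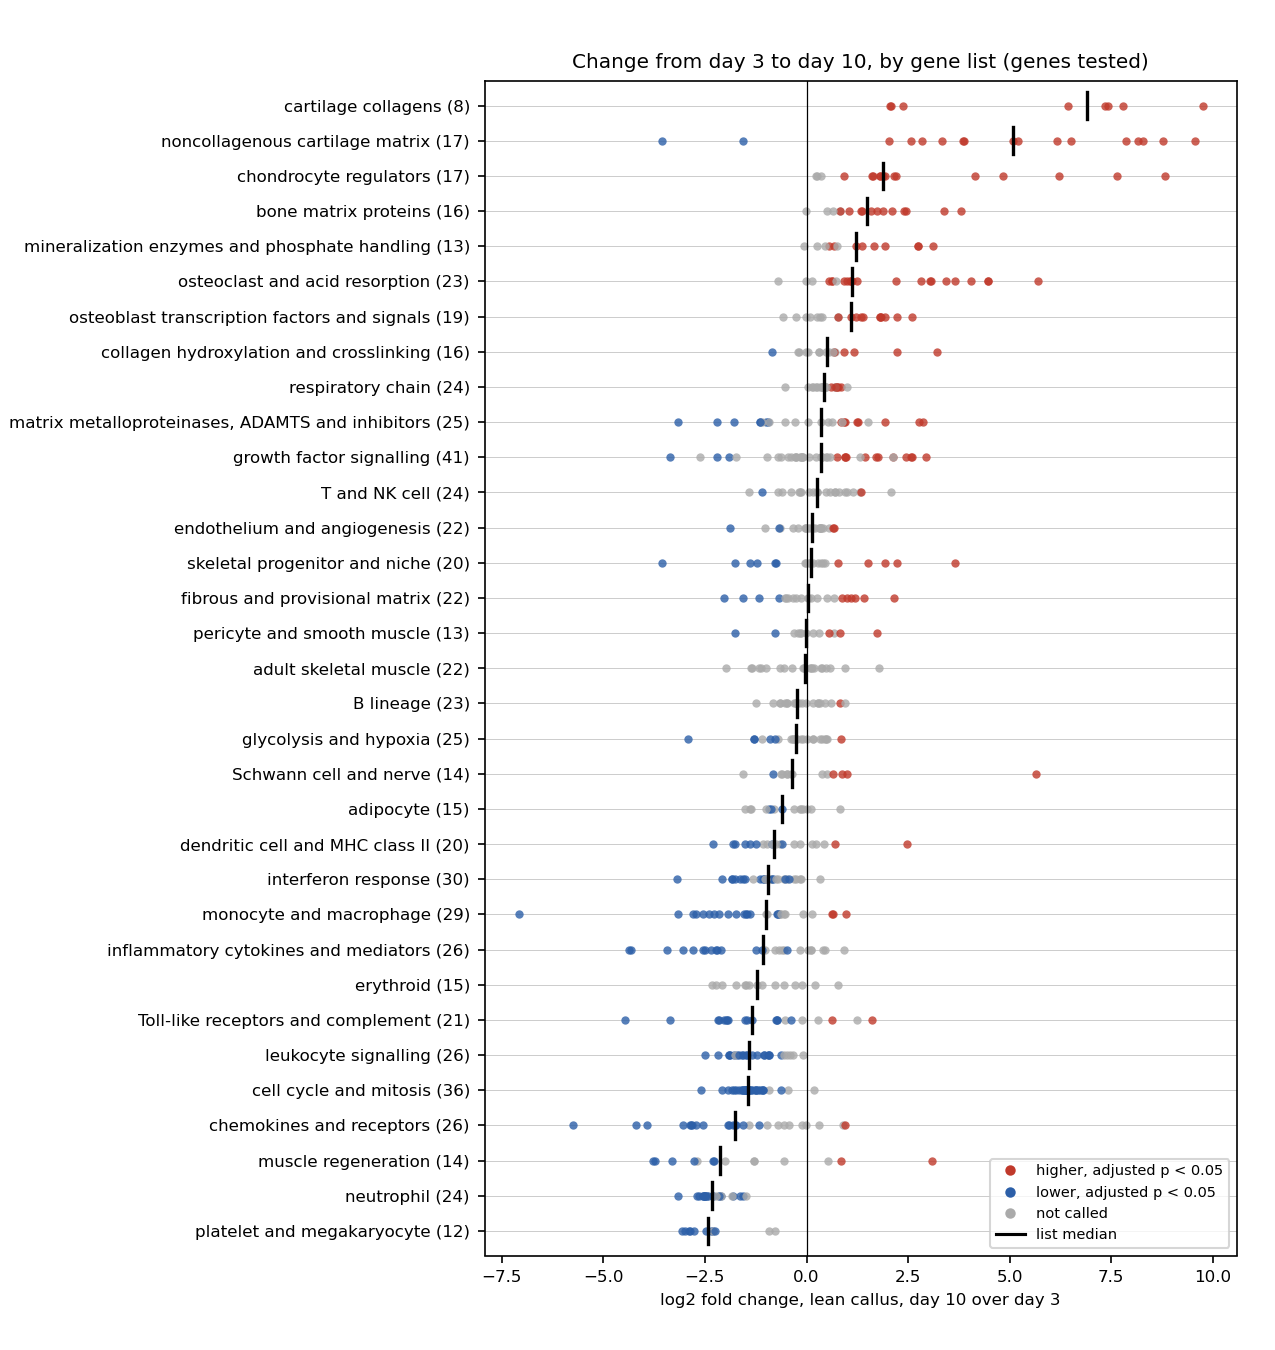
Log2 fold change (d10 over d3, horizontal axis) of each tested gene in the 33 gene lists, with the number of tested genes beside each list name. Red points are genes called higher on d10, blue points genes called lower, grey points genes not called, and the black bar is the list median. The 8 cartilage collagens all lie to the right of 2, and the 24 neutrophil genes all lie to the left of −1.

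Cartilage collagens showed the largest list median. All 8 cartilage collagen genes tested were called higher on d10, with a median log2 fold change of 6.90, against 0.02 over all genes. Their summed share of all counts was 0.127%, 0.155% and 0.22% in the d3 libraries and 6.26%, 1.86% and 1.76% in the d10 libraries. Collagen II, the main fibril of hyaline cartilage, is encoded by Col2a1 (GRCm38 chromosome 15, 97975602 to 98004695, minus strand). Col2a1 was at 142, 145 and 98.5 CPM on d3 and 47119.7, 8976 and 7095 CPM on d10 (log2 fold change 7.36 ± 1.06, edgeR adjusted p = 0.000806). Every d10 library lay far above every d3 library, and d10 replicate 1 held more than 5 times the level of either other d10 library. Col10a1, the collagen of hypertrophic chondrocytes, was at 21.3, 1.59 and 1.09 CPM on d3 and 12115, 3574 and 4602 CPM on d10 (log2 fold change 9.75 ± 1.59, edgeR adjusted p = 0.00151). Its d3 libraries differed among themselves, since d3 replicate 1 lay above 20 CPM and the other two near 1. The collagen IX genes, whose products coat the collagen II fibril, rose together, with log2 fold changes of 6.44 ± 0.92 for Col9a1, 7.78 ± 0.98 for Col9a2 and 7.43 ± 1.00 for Col9a3. The smallest changes of the list were those of Col11a1 (2.06 ± 0.43) and Col27a1 (2.08 ± 0.56), fibrillar collagens already present on d3. Without d10 replicate 1, 7 of the 8 were called and the median was 5.77. Col27a1 was no longer called without d3 replicate 2 (log2 fold change 1.98, edgeR adjusted p = 0.0677) or d10 replicate 1 (1.11, 0.0752). Col2a1 had a log2 fold change of 5.97, Col10a1 one of 9.03, Col9a1 one of 5.57, Col9a2 one of 6.57 and Col9a3 one of 6.17 without d10 replicate 1. Col10a1 had a log2 fold change of 12.28 without d3 replicate 1.

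The noncollagenous cartilage proteins followed the collagens, with 15 of 17 tested genes called higher, 2 called lower and a median log2 fold change of 5.09. Acan, the large aggregating proteoglycan of cartilage, was at 247, 175 and 177 CPM on d3 and 6443, 1161 and 1021 CPM on d10 (log2 fold change 3.85 ± 0.79, edgeR adjusted p = 0.00464). Comp, a pentameric protein that binds collagen fibrils, was at 88.4, 126 and 132 CPM on d3 and 8829, 2299 and 1590.0 CPM on d10 (log2 fold change 5.2 ± 0.77, edgeR adjusted p = 0.000944). The d10 libraries lay above the d3 libraries for both genes, with d10 replicate 1 the highest. Snorc, a chondrocyte membrane proteoglycan, was at 2.396, 0.242 and 0.148 CPM on d3 and 1337, 374 and 207 CPM on d10 (log2 fold change 9.56 ± 1.3, edgeR adjusted p = 0.000599). Matn1, a matrilin that is made by chondrocytes, had a log2 fold change of 8.17 ± 1.51, and Hapln1, the link protein that fixes aggrecan to hyaluronan, one of 5.09 ± 0.94. The genes that fell are known from joint surfaces and from the intermediate zone of cartilage. Prg4, the lubricin of synovial and articular surfaces, was at 319, 174 and 265 CPM on d3 and 26.1, 15.9 and 22.3 CPM on d10 (log2 fold change −3.56 ± 0.39, edgeR adjusted p = 0.000176). Cilp, a protein of the intermediate cartilage layer, fell by 1.57 on the log2 scale, and was at 117, 58.3 and 76.9 CPM on d3 and 15.1, 33.8 and 35.9 CPM on d10. The groups did not overlap for either gene. Without d10 replicate 1, 14 were called higher and 2 lower, and the list median was 4.08. Cilp was no longer called without d3 replicate 1 (log2 fold change −1.26, edgeR adjusted p = 0.0566). Acan had a log2 fold change of 2.45, Comp one of 4.08, Snorc one of 8.46, Matn1 one of 7.13 and Hapln1 one of 4.16 without d10 replicate 1. Snorc had a log2 fold change of 11.58 and Matn1 one of 9.12 without d3 replicate 1.

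Among 17 tested regulators of chondrocytes, 14 were called higher, none lower, and the median log2 fold change was 1.89. Sox9, the transcription factor that specifies the chondrocyte lineage, was at 21.3, 17.1 and 20.1 CPM on d3 and 134, 33.5 and 36.7 CPM on d10 (log2 fold change 1.8 ± 0.59, edgeR adjusted p = 0.0369). Only d10 replicate 1 exceeded 40 CPM, although the other d10 libraries also lay above all d3 libraries. Ihh, the hedgehog ligand of prehypertrophic chondrocytes, was at 5.03, 4.63 and 3.95 CPM on d3 and 729.8, 172 and 111 CPM on d10 (log2 fold change 6.22 ± 0.90, edgeR adjusted p = 0.000852). Gli1, a transcription factor of hedgehog signalling, changed by 1.94 ± 0.28, Ptch1, the receptor, by 1.81 ± 0.38, and Hhip, a membrane inhibitor, by 4.84 ± 0.60. Pth1r, the receptor for parathyroid hormone-related protein, had a log2 fold change of 2.19 ± 0.49. Its ligand gene Pthlh was near 1 CPM or below in most libraries and was not called, at 0.526, 0.38 and 0.84 CPM on d3 and 0.252, 0.476 and 1.49 CPM on d10. Foxa2 and Foxa3, forkhead factors of hypertrophic chondrocytes, had 2 and 1 counts over the 3 d3 libraries and 353 and 477 over the 3 d10 libraries. The ratio of d10 to d3 was 247 for Foxa2 (95% counting interval 67.9 to 2047) and 668 for Foxa3 (119 to 26420), and their fitted log2 fold changes were 7.64 and 8.84. Sox6, a partner of SOX9, was not called and its groups overlapped, at 16.1, 23.9 and 10.6 CPM on d3 and 22.1, 21.2 and 17.2 CPM on d10. Without d10 replicate 1, or without d3 replicate 2, 11 of the 17 were called higher. Sox9 was no longer called without d3 replicate 1 (log2 fold change 1.87, edgeR adjusted p = 0.0848), d3 replicate 2 (1.71, 0.115), d3 replicate 3 (1.82, 0.0801) or d10 replicate 1 (0.86, 0.21). Ihh had a log2 fold change of 4.97, Pth1r one of 1.41, Foxa2 one of 6.17 and Foxa3 one of 7.82 without d10 replicate 1. Foxa2 had a log2 fold change of 10.08 and Foxa3 one of 10.51 without d3 replicate 3.

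**Figure D2:**
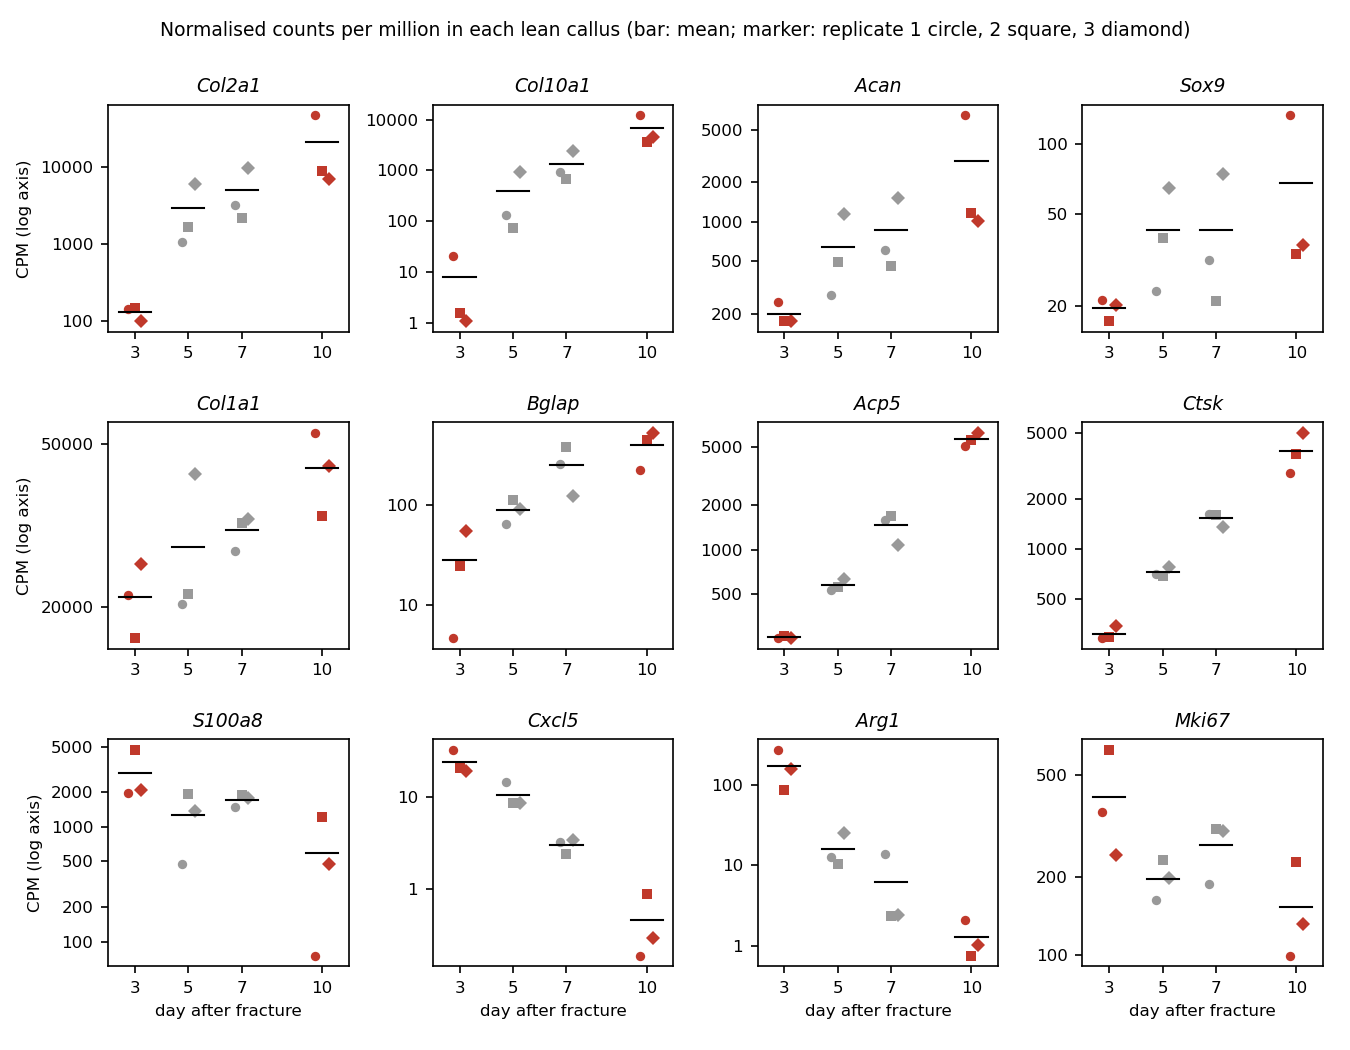
Level of 12 genes in the 12 lean libraries (CPM, log axis) on d3, d5, d7 and d10. Circles, squares and diamonds mark replicates 1, 2 and 3, the bar is the mean of the day, red points are the d3 and d10 libraries compared here and grey points are d5 and d7. Col2a1 and Col10a1 lie above all d3 libraries on d10, and Arg1 and Cxcl5 lie below them.

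The bone matrix list also rose, with 12 of 16 tested genes called higher, none lower, and a median log2 fold change of 1.48. Its summed share of counts was 5.69%, 4.96% and 7.23% on d3 and 12.6%, 10.7% and 14.2% on d10, and the groups did not overlap. Spp1 (GRCm38 chromosome 5, 104435118 to 104441050, plus strand) encodes osteopontin, an acidic protein of bone and calcified cartilage that is also made by osteoclasts and macrophages. Spp1 was at 1314, 1111 and 1403 CPM on d3 and 8669, 5192 and 7154 CPM on d10 (log2 fold change 2.46 ± 0.26, edgeR adjusted p = 0.000155). Bglap (GRCm38 chromosome 3, 88383501 to 88384464, minus strand) encodes osteocalcin of mature osteoblasts and was at 4.67, 24.6 and 55.4 CPM on d3 and 220.4, 444 and 522 CPM on d10 (log2 fold change 3.81 ± 0.72, edgeR adjusted p = 0.00305). The d3 libraries spread over more than 10-fold for Bglap, whereas the d10 libraries lay within 3-fold. Bglap2 is near-identical to Bglap in sequence, so the division of reads between them is uncertain. Col1a1, the main collagen chain of bone, was at 21358, 16725 and 25384 CPM on d3 and 53263, 33220.4 and 44077 CPM on d10 (log2 fold change 1.04 ± 0.33, edgeR adjusted p = 0.0314). Col1a2, its partner chain, was at 14340.4, 13466 and 20251 CPM on d3 and 39394, 34288 and 48559 CPM on d10 (log2 fold change 1.35 ± 0.30, edgeR adjusted p = 0.00648). No d3 library reached the d10 range for any of these genes. Dmp1, a phosphoprotein of osteocytes, changed by 2.39 ± 0.46, and Ibsp, bone sialoprotein, by 1.37 ± 0.41. Tnn, tenascin-W, was not called, at 285, 162 and 210.5 CPM on d3 and 307, 118 and 221 CPM on d10. Leaving out 1 library at a time left 8 to 12 of the list called higher, with 8 of them without d3 replicate 1 or d3 replicate 2. Col1a1 was no longer called without d3 replicate 1 (log2 fold change 1.05, edgeR adjusted p = 0.0844), d3 replicate 2 (0.89, 0.113), d10 replicate 1 (0.87, 0.0833) or d10 replicate 3 (1.01, 0.056). Ibsp was no longer called without d3 replicate 1 (log2 fold change 1.39, edgeR adjusted p = 0.0712), d3 replicate 2 (1.22, 0.101) or d10 replicate 1 (1.14, 0.0778). Bglap had a log2 fold change of 4.74 without d3 replicate 3.

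The stretches of DNA just upstream of Spp1, Bglap and Mmp13, a collagenase gene that rose with them, are shown because each holds the core sequence ACCACA that RUNX factors, the main transcription factors of bone and hypertrophic cartilage, are known to bind. Each is the 250 bases before the RefSeq transcription start in GRCm38.p6, written 5′ to 3′ on the strand of the gene, with the match in capitals.
Bglap, chr3:88384467-88384716, minus strand: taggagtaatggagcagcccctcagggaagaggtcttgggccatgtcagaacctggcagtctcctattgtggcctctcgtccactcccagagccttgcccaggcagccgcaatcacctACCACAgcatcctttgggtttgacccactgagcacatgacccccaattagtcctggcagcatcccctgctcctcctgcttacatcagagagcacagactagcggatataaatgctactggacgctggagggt
Spp1, chr5:104434861-104435110, plus strand: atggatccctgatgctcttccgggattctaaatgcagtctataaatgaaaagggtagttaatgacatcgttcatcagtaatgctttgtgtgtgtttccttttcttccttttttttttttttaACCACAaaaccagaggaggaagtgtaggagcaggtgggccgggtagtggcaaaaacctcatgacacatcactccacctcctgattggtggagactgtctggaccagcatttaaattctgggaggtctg
Mmp13, chr9:7272264-7272513, plus strand: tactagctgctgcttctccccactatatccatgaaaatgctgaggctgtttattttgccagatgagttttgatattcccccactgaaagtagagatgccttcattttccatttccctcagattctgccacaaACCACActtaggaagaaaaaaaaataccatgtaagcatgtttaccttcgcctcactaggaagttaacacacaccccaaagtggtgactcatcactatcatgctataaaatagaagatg
The match begins 132 bases before the start in Bglap, 128 in Spp1 and 118 in Mmp13. Searched on both strands, ACCACA was present in 4614 of 32851 such windows of the table (14.05%). Counted by gene, where a match in any window of the gene sufficed, it was present in 1591 of 11812 tested genes with a window (13.47%). By the same count it was present in 242 of 1871 genes called higher on d10 (12.9%) and in 268 of 1786 called lower (15.0%). It was present in 4 of the 13 bone matrix genes with a window (30.8%), and in 2 of 18 genes of the metalloproteinase list that holds Mmp13 (11.1%). The share among genes called higher was near that over all tested genes, and the match in these genes is a description of the sequence only. No window was given for Col2a1, Arg1, Cxcl5 or Snorc.

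Genes of the osteoblast program were split between those that were higher on d10 and those that were not called. Of 19 tested, 11 were called higher, none lower, and the median log2 fold change was 1.09. Runx2, the transcription factor that starts osteoblast differentiation, was at 90.3, 76.3 and 82.3 CPM on d3 and 91.3, 104 and 127 CPM on d10 and was not called (log2 fold change 0.37 ± 0.22, edgeR adjusted p = 0.223). Its groups did not overlap, as was so for 7065 of the 16471 genes tested. Sp7, the factor that acts after RUNX2, was at 269, 223 and 302 CPM on d3 and 398, 511 and 455 CPM on d10 (log2 fold change 0.78 ± 0.25, edgeR adjusted p = 0.0334). The d10 libraries lay above the d3 libraries for Sp7. Wif1, Dkk1 and Notum, each of which encodes a secreted inhibitor of Wnt signalling, had log2 fold changes of 2.6 ± 0.37, 2.23 ± 0.35 and 1.94 ± 0.45, whereas Sfrp1 and Sfrp2, secreted Wnt inhibitors of the growth factor list, had ones of −3.37 ± 0.49 and −1.92 ± 0.30. Sost, the osteocyte product sclerostin, was at 11.98, 46.3 and 32.3 CPM on d3 and 72.95, 132 and 114 CPM on d10 (log2 fold change 1.81 ± 0.59, edgeR adjusted p = 0.0369). Lrp5, a Wnt co-receptor, was not called, at 46.8, 37.6 and 46.1 CPM on d3 and 50.4, 36.95 and 41.5 CPM on d10. Leaving out 1 library at a time left 7 to 11 of the 19 called, with 7 without d3 replicate 1 and 8 without d3 replicate 2. Sp7 was no longer called without d3 replicate 1 (log2 fold change 0.79, edgeR adjusted p = 0.0815), d3 replicate 2 (0.67, 0.124), d10 replicate 2 (0.67, 0.0964) or d10 replicate 3 (0.76, 0.0621). Sost was no longer called without d3 replicate 1 (log2 fold change 1.43, edgeR adjusted p = 0.113), d3 replicate 3 (1.85, 0.077), d10 replicate 2 (1.6, 0.0938) or d10 replicate 3 (1.73, 0.0728).

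Mineralization genes rose in 9 of 13 tested cases, none fell, and the median log2 fold change was 1.23. Alpl, the phosphatase that frees phosphate from pyrophosphate, was at 839, 564 and 872 CPM on d3 and 3628, 1644 and 1902 CPM on d10 (log2 fold change 1.66 ± 0.38, edgeR adjusted p = 0.00762). Fam20c, the kinase that phosphorylates secreted matrix proteins, was at 56.6, 39.7 and 51.1 CPM on d3 and 803, 238 and 239.8 CPM on d10 (log2 fold change 3.12 ± 0.42, edgeR adjusted p = 0.00059). Phex, an osteocyte peptidase of phosphate handling, was at 10.8, 24.2 and 42.2 CPM on d3 and 128, 158 and 235 CPM on d10 (log2 fold change 2.75 ± 0.48, edgeR adjusted p = 0.00199). The groups did not overlap for these 3 genes. Mgp, an inhibitor of calcification made by chondrocytes, rose by 2.75 ± 0.45. Phospho1 was not called, at 6.14, 3.15 and 7.66 CPM on d3 and 4.41, 4.83 and 6.91 CPM on d10, and since 90% of its exons lie within those of Zfp652 on the same strand, its reads are uncertain. Without d10 replicate 1, or without d3 replicate 2, 7 of the 13 were called. Fam20c had a log2 fold change of 2.29 and Mgp one of 1.99 without d10 replicate 1.

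The summed level of the osteoclast genes rose with little spread between the replicates of a day. Of 23 genes of osteoclasts and acid resorption, 19 were called higher, none lower, and the median log2 fold change was 1.11. Their summed level was 2371, 2906 and 2424 CPM on d3 and 16242, 17447 and 19539 CPM on d10. Acp5, the tartrate-resistant acid phosphatase, was at 255, 262 and 252 CPM on d3 and 5063, 5558 and 6234 CPM on d10 (log2 fold change 4.46 ± 0.22, edgeR adjusted p = 4.33e-07). Ctsk, the protease that degrades collagen in the resorption pit, was at 287, 295 and 341 CPM on d3 and 2893, 3755 and 5058 CPM on d10 (log2 fold change 3.67 ± 0.23, edgeR adjusted p = 4.42e-06). The 3 libraries of a day lay within a factor of 2 of each other for both genes, and the days were far apart. Dcstamp and Ocstamp, membrane proteins needed for fusion of osteoclast precursors, had log2 fold changes of 4.47 ± 0.22 and 3.44 ± 0.16. Mmp9, a gelatinase of osteoclasts and neutrophils, was at 400.0, 662 and 452 CPM on d3 and 4409.5, 4027 and 4139.8 CPM on d10 (log2 fold change 3.05 ± 0.23, edgeR adjusted p = 2.28e-05). Calcr, the calcitonin receptor of mature osteoclasts, was below 0.1 CPM in every d3 library and between 1.97 and 5.66 CPM on d10. Leaving out 1 library at a time left 18 or 19 genes called.

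Genes of the signals that control osteoclast formation had smaller fold changes than the osteoclast products just named. Tnfrsf11a, the receptor RANK, was at 28.8, 25.9 and 28.97 CPM on d3 and 38.05, 41.1 and 43.7 CPM on d10 (log2 fold change 0.55 ± 0.14, edgeR adjusted p = 0.0115). Tnfsf11, the ligand RANKL, was at 15.2, 16.7 and 17.4 CPM on d3 and 33.96, 17.7 and 29.6 CPM on d10 and was not called (log2 fold change 0.72 ± 0.29, edgeR adjusted p = 0.0768). Tnfrsf11b, the decoy receptor osteoprotegerin, was at 34.6, 22.9 and 27.1 CPM on d3 and 39.1, 7.89 and 37 CPM on d10 and was not called (log2 fold change −0.01 ± 0.49, edgeR adjusted p = 0.99). The d10 libraries exceeded the d3 libraries for RANK and RANKL, and the groups overlapped for osteoprotegerin. Csf1, the growth factor M-CSF, was not called either, at 203, 138 and 134 CPM on d3 and 192, 153 and 169 CPM on d10. Car2, a member of the osteoclast list, encodes the carbonic anhydrase of osteoclasts and erythroid cells and was not called. It spread widely within each day, at 92.5, 297 and 30.8 CPM on d3 and 27.03, 165 and 68.7 CPM on d10. Its level followed the erythroid level of the libraries. Tnfrsf11a was no longer called without d3 replicate 2 (log2 fold change 0.50, edgeR adjusted p = 0.0511). Tnfsf11 was called without d10 replicate 2 (log2 fold change 0.93, edgeR adjusted p = 0.0293).

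**Figure D3:**
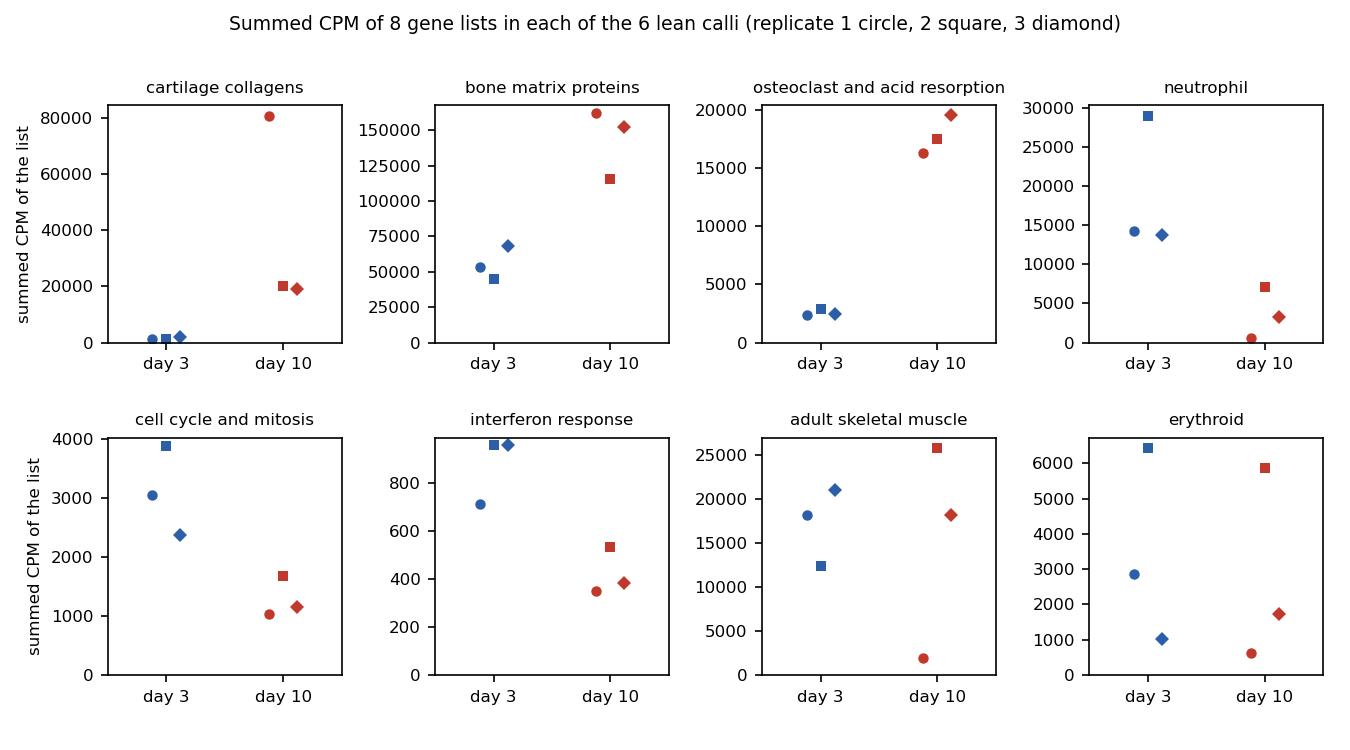
Summed level of the genes of 8 lists (CPM, axis from 0) in the 3 d3 libraries (blue) and the 3 d10 libraries (red). The osteoclast sums do not overlap between days, whereas the adult skeletal muscle and erythroid sums of d10 spread across the d3 range.

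Matrix remodelling genes moved in both directions, and their counts stand beside 15.2% of all genes called higher and 14.1% called lower. Of 25 metalloproteinases, ADAMTS proteases and inhibitors, 8 were called higher and 7 lower, and the median log2 fold change was 0.36. Mmp13, the collagenase of hypertrophic chondrocytes and osteoblasts, was at 367, 356 and 483 CPM on d3 and 3407, 2521 and 2917 CPM on d10 (log2 fold change 2.88 ± 0.37, edgeR adjusted p = 0.000418). Mmp2, a gelatinase of stromal cells, was at 630.5, 514 and 893 CPM on d3 and 1784, 1429 and 1667 CPM on d10 (log2 fold change 1.26 ± 0.22, edgeR adjusted p = 0.00223). Among those that fell were Mmp25, a membrane protease of neutrophils (−3.15 ± 0.65), and Plau, the urokinase that activates plasmin. Plau was at 120.3, 88.1 and 102 CPM on d3 and 26.2, 26.5 and 36.7 CPM on d10 (log2 fold change −1.8 ± 0.19, edgeR adjusted p = 0.000131), and its groups did not overlap. Of 16 collagen hydroxylation and crosslinking genes, 5 were called higher and 1 lower, the largest increase being that of Loxl4, a lysyl oxidase (3.21 ± 0.66). The 22 fibrous and provisional matrix genes had a median of 0.03, with 6 called higher and 4 lower. Fn1, fibronectin, was at 1622, 1111 and 1304 CPM on d3 and 10809, 2983 and 4148 CPM on d10 (log2 fold change 2.15 ± 0.43, edgeR adjusted p = 0.00396). Has2, the enzyme that makes hyaluronan, was at 44.6, 38.2 and 35.9 CPM on d3 and 12.98, 5.85 and 10.01 CPM on d10 (log2 fold change −2.04 ± 0.29, edgeR adjusted p = 0.000714). Tgfbi, an adhesion protein of stroma and macrophages, fell by 1.57 on the log2 scale. Without d3 replicate 1, 7 proteases were called higher and 3 lower, and without d3 replicate 2, 7 and 4. Without d3 replicate 2, 3 hydroxylation genes and 3 fibrous matrix genes were called higher, and no hydroxylation gene was called lower without d3 replicate 1, d3 replicate 3 or d10 replicate 2. Loxl4 had a log2 fold change of 2.52 and Fn1 one of 1.41 without d10 replicate 1.

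Few endothelial genes were called. Of 22 endothelial and angiogenic genes, 2 were called higher and 2 lower, below the 29.3% of all genes, and the median log2 fold change was 0.12. Pecam1, the endothelial adhesion molecule, was at 175, 142 and 197 CPM on d3 and 137, 169.8 and 205 CPM on d10 (log2 fold change −0.01 ± 0.16, edgeR adjusted p = 0.976). Emcn, a sialomucin of sinusoidal and capillary endothelium, was at 51.7, 40.1 and 64.9 CPM on d3 and 84.5, 79.5 and 86.8 CPM on d10 (log2 fold change 0.68 ± 0.20, edgeR adjusted p = 0.0247). Vwf, the clotting factor of endothelium and megakaryocytes, was at 66.6, 106 and 71.9 CPM on d3 and 8.63, 33.8 and 23.8 CPM on d10 (log2 fold change −1.89 ± 0.37, edgeR adjusted p = 0.00355), and fell alongside the platelet genes. Of 13 pericyte and smooth muscle genes, 3 were called higher and 2 lower, beside 15.2% and 14.1% of all genes. Cspg4, the proteoglycan NG2 (1.74 ± 0.44), was among the higher ones and Acta2, smooth muscle actin (−0.78 ± 0.21), among the lower ones. With 1 library left out, 0 to 3 endothelial genes were called in either direction, with none higher without d3 replicate 1 or d3 replicate 2, and no pericyte gene was lower without d3 replicate 1 or higher without d3 replicate 2. Emcn was no longer called without d3 replicate 1 (log2 fold change 0.67, edgeR adjusted p = 0.0686), d3 replicate 2 (0.52, 0.1) or d10 replicate 3 (0.63, 0.054). Cspg4 was no longer called without d3 replicate 2 (log2 fold change 1.61, edgeR adjusted p = 0.055). Acta2 was no longer called without d3 replicate 1 (log2 fold change −0.59, edgeR adjusted p = 0.0701). Cspg4 had a log2 fold change of 1.01 without d10 replicate 1.

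Neutrophil transcripts were lower on d10 in all 24 genes tested, of which 18 were called, and the median log2 fold change was −2.33. Their summed level was 14311, 28943 and 13710 CPM on d3 and 516, 7157 and 3296 CPM on d10, so the days did not overlap but the d10 libraries differed by more than 10-fold. S100a8, a calcium-binding protein that is abundant in neutrophils, was at 1957, 4691 and 2092 CPM on d3 and 75.3, 1209 and 473 CPM on d10 (log2 fold change −2.31 ± 0.77, edgeR adjusted p = 0.0415). Its partner S100a9 was at 4262, 8576 and 3951 CPM on d3 and 145, 2402 and 1007 CPM on d10 and was just short of the threshold (log2 fold change −2.24 ± 0.80, edgeR adjusted p = 0.0529). Both pairs of groups were separate, with d10 replicate 2 closest to the d3 levels. Cxcr2, the receptor that draws neutrophils along chemokine gradients, changed by −2.42 ± 0.70. Clec4e, a lectin receptor of activated myeloid cells, was at 19.99, 28.4 and 16.9 CPM on d3 and 1.89, 4.08 and 6.02 CPM on d10 (log2 fold change −2.44 ± 0.35, edgeR adjusted p = 0.000775). Mpo, a granule enzyme of neutrophil precursors, was at 419, 736 and 301 CPM on d3 and 13.2, 209.7 and 102 CPM on d10 and was not called (log2 fold change −2.17 ± 0.83, edgeR adjusted p = 0.0685). The count depended on single libraries: 4 of the 24 were called lower without d3 replicate 2, 6 without d10 replicate 3, 12 without d3 replicate 1, 13 without d10 replicate 1, 15 without d3 replicate 3 and 23 without d10 replicate 2. S100a8 was no longer called without d3 replicate 1 (log2 fold change −2.54, edgeR adjusted p = 0.0571), d3 replicate 2 (−1.79, 0.147), d3 replicate 3 (−2.51, 0.051) or d10 replicate 3 (−2.21, 0.101). S100a9 was called without d10 replicate 2 (log2 fold change −3.3, edgeR adjusted p = 0.0191). Cxcr2 was no longer called without d3 replicate 2 (log2 fold change −1.86, edgeR adjusted p = 0.0958). Mpo was called without d10 replicate 2 (log2 fold change −3.1, edgeR adjusted p = 0.0345). S100a8 had a log2 fold change of −3.43 and Cxcr2 one of −3.03 without d10 replicate 2.

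Inflammatory cytokines and mediators were lower in 14 of 26 tested genes, and none was called higher. The median log2 fold change was −1.06. Il1b, interleukin-1β, was at 35.2, 73.03 and 49.2 CPM on d3 and 2.39, 11.2 and 13.2 CPM on d10 (log2 fold change −2.56 ± 0.54, edgeR adjusted p = 0.00531). Tnf, tumor necrosis factor, was at 7.25, 8.99 and 5.24 CPM on d3 and 2.02, 1.497 and 0.715 CPM on d10 (log2 fold change −2.35 ± 0.43, edgeR adjusted p = 0.00252). Il1rn, the antagonist of the interleukin-1 receptor, was at 50.96, 49.2 and 34.8 CPM on d3 and 7.69, 12.1 and 9.23 CPM on d10 (log2 fold change −2.22 ± 0.21, edgeR adjusted p = 7.57e-05). For these genes every d10 library lay below every d3 library, so that the agonist and its antagonist fell together. Il33, an alarmin of stromal cells, fell by 3.43 on the log2 scale, Osm, a cytokine of myeloid cells, by 3.03 and Il11, a cytokine of stroma, by 2.78. Acod1, the itaconate-forming enzyme of activated macrophages, was at 7.25, 4.01 and 3.06 CPM on d3 and 0.063, 0.34 and 0.298 CPM on d10 (log2 fold change −4.31 ± 0.58, edgeR adjusted p = 0.000599). Ptges, which makes prostaglandin E, was not called, at 27.8, 22.3 and 24.96 CPM on d3 and 48.5, 13.5 and 19.1 CPM on d10. Leaving out 1 library at a time left 11 to 14 called lower. Il11 had a log2 fold change of −3.4 without d10 replicate 1. Osm had a log2 fold change of −3.87 without d10 replicate 3.

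Among chemokines and their receptors, 16 of 26 tested genes were called lower and 1 higher, and the median log2 fold change was −1.75. Cxcl5, a neutrophil attractant (GRCm38 chromosome 5, 90759360 to 90761624, plus strand), was at 33.1, 20.7 and 19.3 CPM on d3 and 0.189, 0.885 and 0.298 CPM on d10 (log2 fold change −5.74 ± 0.48, edgeR adjusted p = 3.20e-05). Ccl2, which recruits monocytes, was at 34.01, 15.2 and 24.1 CPM on d3 and 3.46, 3.06 and 3.81 CPM on d10 (log2 fold change −2.82 ± 0.33, edgeR adjusted p = 0.000261). The groups were separate for both genes, and the d10 levels of Ccl2 lay close together. Ccr2, the receptor for CCL2 on inflammatory monocytes, was at 91.7, 131 and 102 CPM on d3 and 4.79, 22.8 and 21.6 CPM on d10 (log2 fold change −2.72 ± 0.46, edgeR adjusted p = 0.00173). The gene that rose was Ccl9, a chemokine of myeloid cells and osteoclasts, at 130.5, 135 and 121 CPM on d3 and 262, 249.7 and 239 CPM on d10 (log2 fold change 0.96 ± 0.14, edgeR adjusted p = 0.000772). Ccr1, a receptor for CCL9, was not called, at 46.2, 62.1 and 48.2 CPM on d3 and 41.1, 56.6 and 57.5 CPM on d10. The number called lower ranged from 14 to 18 with 1 library left out. Cxcl5 had a log2 fold change of −6.62 without d10 replicate 2.

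The monocyte and macrophage genes were divided. Of 29 tested, 17 were called lower, 3 higher, and the median log2 fold change was −1.0. Arg1, arginase 1 of macrophages in early wounds (GRCm38 chromosome 10, 24915221 to 24927484, minus strand), was at 277, 88.3 and 161 CPM on d3 and 2.08, 0.749 and 1.01 CPM on d10 (log2 fold change −7.09 ± 0.84, edgeR adjusted p = 0.000268), which gave it the largest fitted decrease among the genes named here. Every d10 library lay more than 40-fold below every d3 library. Adgre1, the macrophage antigen F4/80, was at 76.8, 79.7 and 84.7 CPM on d3 and 17.7, 26.7 and 28.5 CPM on d10 (log2 fold change −1.73 ± 0.27, edgeR adjusted p = 0.0013). Msr1, a scavenger receptor, changed by −2.15 ± 0.22. Cd68, a lysosomal protein of macrophages and osteoclasts, was at 261, 213 and 244 CPM on d3 and 319, 372 and 419.5 CPM on d10 (log2 fold change 0.63 ± 0.17, edgeR adjusted p = 0.0165). Csf1r, the M-CSF receptor on macrophages and osteoclast precursors, was at 333, 300.1 and 338 CPM on d3 and 418, 501 and 616 CPM on d10 (log2 fold change 0.66 ± 0.19, edgeR adjusted p = 0.0222). The pair rose while F4/80 fell, and the d10 libraries of Cd68 and Csf1r lay above the d3 libraries. With 1 library left out, 14 or 15 were called lower, and no gene was called higher without d3 replicate 2. Cd68 was no longer called without d3 replicate 2 (log2 fold change 0.55, edgeR adjusted p = 0.0723) or d10 replicate 3 (0.51, 0.0551). Csf1r was no longer called without d3 replicate 1 (log2 fold change 0.68, edgeR adjusted p = 0.0568), d3 replicate 2 (0.61, 0.0823) or d10 replicate 3 (0.48, 0.0809).

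General leukocyte signalling genes fell in 20 of 26 tested cases, none rose, and the median log2 fold change was −1.41. Fgr, a Src-family kinase of myeloid cells, was at 112, 145 and 96.3 CPM on d3 and 10.1, 31.8 and 20.8 CPM on d10 (log2 fold change −2.5 ± 0.34, edgeR adjusted p = 0.000599). Inpp5d, the inositol phosphatase SHIP1, was at 143, 143 and 113 CPM on d3 and 47.1, 54.9 and 55.3 CPM on d10 (log2 fold change −1.34 ± 0.13, edgeR adjusted p = 9.05e-05). The groups were separate for both, and the d10 levels of Inpp5d lay within 10 CPM of each other. Tyrobp, the adaptor DAP12 shared by myeloid cells and osteoclasts, was not called, at 348, 410.4 and 346 CPM on d3 and 248, 409 and 390.4 CPM on d10. Of 21 Toll-like receptor and complement genes, 15 were called lower and 2 higher, with a median of −1.35. C5ar1, the receptor for the anaphylatoxin C5a, was at 85.2, 75.3 and 71.8 CPM on d3 and 17.1, 15.9 and 18.5 CPM on d10 (log2 fold change −2.17 ± 0.18, edgeR adjusted p = 2.79e-05). Tlr13, a receptor for bacterial RNA, was at 53.01, 54.4 and 44.8 CPM on d3 and 8.82, 16.3 and 13.6 CPM on d10 (log2 fold change −1.97 ± 0.21, edgeR adjusted p = 0.000133). Among those that rose was the complement protease C1ra, at 0.63 on the log2 scale, which was chosen after its values were seen and shares near-identical stretches with a neighbouring gene. Between 15 and 20 signalling genes and 11 to 14 receptor and complement genes were called lower when single libraries were left out.

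Interferon-induced genes were lower in 16 of 30 cases, none was called higher, and the median log2 fold change was −0.95. Their summed level was 711, 956 and 959 CPM on d3 and 348, 532 and 385 CPM on d10. Oas2, an antiviral enzyme that makes oligoadenylate, was at 36.6, 42.6 and 43.1 CPM on d3 and 7.88, 12.5 and 8.401 CPM on d10 (log2 fold change −2.09 ± 0.26, edgeR adjusted p = 0.000364). Mx1, an antiviral GTPase, was at 13.9, 14.97 and 23.9 CPM on d3 and 4.35, 6.12 and 4.41 CPM on d10 (log2 fold change −1.83 ± 0.26, edgeR adjusted p = 0.000694). Slfn4, a schlafen gene of myeloid cells, was at 138, 218 and 106 CPM on d3 and 5.17, 26.1 and 19.4 CPM on d10 (log2 fold change −3.19 ± 0.48, edgeR adjusted p = 0.00104). All 3 showed separate groups. Gbp2, a GTPase induced by interferon-γ, was not called, at 10.2, 12.3 and 22 CPM on d3 and 10.96, 12.7 and 16.2 CPM on d10. The number called lower was 9 without d3 replicate 3 or d10 replicate 3, 10 without d3 replicate 2 or d10 replicate 1, 17 without d3 replicate 1 and 21 without d10 replicate 2.

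The window upstream of Ifit1, one of the interferon-induced genes that fell, is shown because it holds 2 copies of the interferon-stimulated response element, GAAANNGAAA, the motif that factors activated by type I interferon are known to bind. It is the 250 bases before the RefSeq start in GRCm38.p6, 5′ to 3′ on the strand of the gene, with both matches in capitals, read here on the opposite strand of the motif.
Ifit1, chr19:34640639-34640888, plus strand: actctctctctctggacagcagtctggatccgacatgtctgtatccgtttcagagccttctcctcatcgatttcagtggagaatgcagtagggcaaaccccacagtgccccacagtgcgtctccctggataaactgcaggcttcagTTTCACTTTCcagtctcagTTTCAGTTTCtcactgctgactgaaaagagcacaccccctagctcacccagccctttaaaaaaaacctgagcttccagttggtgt
The matches begin 104 and 85 bases before the start. Ifit1 was at 7.66, 9.16 and 30.1 CPM on d3 and 5.29, 7.14 and 2.62 CPM on d10 (log2 fold change −1.64 ± 0.52, edgeR adjusted p = 0.0323), and was chosen after its values were seen. The motif was present on either strand in 978 of 32851 windows (2.98%). Counted by gene, where a match in any window of the gene sufficed, it was present in 393 of 11812 tested genes with a window (3.33%). By the same count it was present in 13 of 23 genes of the interferon list (56.5%), in 99 of 1786 genes called lower (5.54%) and in 51 of 1871 genes called higher (2.73%). The interferon list was made up of interferon-induced genes, and its called members count among the genes called lower. These shares are thus a description of the sequence only. Ifit1 was no longer called without d3 replicate 3 (log2 fold change −0.75, edgeR adjusted p = 0.179), d10 replicate 1 (−1.68, 0.0652) or d10 replicate 3 (−1.34, 0.0887).

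Lymphocyte genes were called less often than the 29.3% of all genes, and antigen presentation genes more often. Among 20 genes of dendritic cells and MHC class II, 8 were called lower and 2 higher, with a median of −0.80. Over all genes, 14.1% were called lower and 15.2% higher. Ciita, the transactivator of MHC class II, was at 10.6, 15.1 and 14.1 CPM on d3 and 1.39, 3.54 and 3.098 CPM on d10 (log2 fold change −2.31 ± 0.35, edgeR adjusted p = 0.00104). Batf3, a transcription factor of dendritic cells, was at 1.87, 1.69 and 3.26 CPM on d3 and 20.2, 10.96 and 6.73 CPM on d10 (log2 fold change 2.47 ± 0.39, edgeR adjusted p = 0.00132), opposite in direction to Ciita. Of 24 T and NK cell genes, 1 was called higher and 1 lower, with a median of 0.26, and the summed level was 22.5 to 99.2 CPM over the 6 libraries. Of 23 B-lineage genes, 1 was called higher, Sdc1, a proteoglycan that plasma cells share with stromal cells (0.82 ± 0.27), and the median was −0.24. The summed B-lineage level was 944, 2064 and 910 CPM on d3 and 822, 1439 and 1413 CPM on d10, so the days overlapped. Calls in the lymphocyte lists ranged from 0 to 3 with 1 library left out. Dendritic cell and MHC class II calls fell to 4 lower without d3 replicate 2. Sdc1 was no longer called without d3 replicate 2 (log2 fold change 0.64, edgeR adjusted p = 0.149), d3 replicate 3 (0.77, 0.0986), d10 replicate 1 (0.58, 0.141) or d10 replicate 3 (0.84, 0.0594).

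Cell cycle genes fell almost throughout. Of 36 tested, 33 were called lower, none higher, and the median log2 fold change was −1.45. Cdk1, the kinase that drives entry into mitosis, was at 97.7, 111 and 81.2 CPM on d3 and 26.1, 42.7 and 27.9 CPM on d10 (log2 fold change −1.58 ± 0.20, edgeR adjusted p = 0.000372). Plk1, a mitotic kinase, was at 77.4, 66.6 and 52.05 CPM on d3 and 13.7, 20.8 and 11.7 CPM on d10 (log2 fold change −2.09 ± 0.28, edgeR adjusted p = 0.000561). Mki67, the antigen of proliferating cells, was at 359, 625 and 245 CPM on d3 and 99.5, 230.2 and 132 CPM on d10 (log2 fold change −1.41 ± 0.37, edgeR adjusted p = 0.0143). In each case the highest d10 level, in d10 replicate 2, was below the lowest d3 level, and the margin was narrowest for Mki67. E2f8, a repressor of the E2F family, had the largest decrease of the list (−2.59 ± 0.41). Ccnd1, cyclin D1, was not called, at 139, 108 and 113 CPM on d3 and 160.2, 123 and 128 CPM on d10. Leaving out single libraries left 32 to 35 genes called lower. Mki67 was no longer called without d3 replicate 2 (log2 fold change −0.97, edgeR adjusted p = 0.0713).

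The metabolic lists held calls for 6 of 25 and 6 of 24 genes, below the 29.3% of all genes tested. Of 25 glycolysis and hypoxia genes, 5 were called lower and 1 higher, with a median of −0.26. Egln3, a prolyl hydroxylase that hypoxia induces, was at 32.7, 18.3 and 20.2 CPM on d3 and 2.02, 3.95 and 3.46 CPM on d10 (log2 fold change −2.91 ± 0.39, edgeR adjusted p = 0.000584). Hk2, a hexokinase, was at 116, 93.3 and 94.1 CPM on d3 and 51.4, 32.7 and 40.6 CPM on d10 (log2 fold change −1.28 ± 0.17, edgeR adjusted p = 0.000599). Epas1, the hypoxia-inducible factor HIF-2α, was at 86.4, 85.6 and 96.5 CPM on d3 and 177, 154 and 155 CPM on d10 (log2 fold change 0.86 ± 0.13, edgeR adjusted p = 0.00104). The groups were separate for these genes, and HIF-2α rose while Hif1a, encoding HIF-1α, fell (−0.91 ± 0.27). Ldha, lactate dehydrogenase, was not called, at 1140.5, 905 and 1083 CPM on d3 and 1106, 1043 and 1011 CPM on d10. Of 24 respiratory chain genes, 6 were called higher, beside 15.2% of all genes, none was called lower, and the median was 0.43. Cox4i1, a subunit of cytochrome c oxidase, was at 348, 332 and 393 CPM on d3 and 642, 715 and 568 CPM on d10 (log2 fold change 0.84 ± 0.18, edgeR adjusted p = 0.0055). Without d3 replicate 2, 2 respiratory chain genes were called, and 4 without d10 replicate 2, and 3 glycolysis genes were lower without d3 replicate 1 or d10 replicate 2. Hif1a was no longer called without d3 replicate 1 (log2 fold change −0.79, edgeR adjusted p = 0.0889), d3 replicate 3 (−0.90, 0.0553) or d10 replicate 2 (−0.70, 0.075).

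Muscle genes separated into an adult set with no call and a regeneration set with calls in both directions. None of the 22 adult muscle genes was called by edgeR or by DESeq2, 0 had an unadjusted edgeR p under 0.05, and the median log2 fold change was −0.05. Without d10 replicate 1, 1 of them was called higher. Tnnt3, a fast troponin, was at 1535, 1306 and 2223 CPM on d3 and 190.2, 2855 and 1869 CPM on d10 (log2 fold change −0.04 ± 0.74, edgeR adjusted p = 0.971), and the low value in d10 replicate 1 was shared by the other genes of the list. Of 14 muscle regeneration genes, 6 were called lower and 2 higher, with a median of −2.14. Myod1, the transcription factor of activated muscle precursors, was at 31.8, 15.9 and 10.03 CPM on d3 and 1.13, 2.11 and 0.953 CPM on d10 (log2 fold change −3.78 ± 0.64, edgeR adjusted p = 0.00177). Myog, the factor of differentiating myoblasts, was at 43.8, 14.8 and 9.59 CPM on d3 and 2.46, 3.67 and 3.87 CPM on d10 (log2 fold change −2.76 ± 0.56, edgeR adjusted p = 0.00416). Myh8, a perinatal myosin of newly formed fibers, was at 6.604, 2.005 and 0.593 CPM on d3 and 35.4, 23.9 and 16.2 CPM on d10 (log2 fold change 3.08 ± 0.91, edgeR adjusted p = 0.025). Myod1 and Myog were thus lower on d10 and Myh8 higher, each without overlap of the groups. Myh3 and Myl4 of the same list were not called, with log2 fold changes of −1.3 and −0.56, opposite in sign to that of Myh8. With 1 library left out, the number called lower ranged from 3 (without d3 replicate 1 or d10 replicate 2) to 6, and none was higher without d3 replicate 2 or d3 replicate 3. Myh8 was no longer called without d3 replicate 2 (log2 fold change 2.83, edgeR adjusted p = 0.0959), d3 replicate 3 (2.59, 0.0684) or d10 replicate 1 (2.76, 0.0567). Myog had a log2 fold change of −1.88 and Myh8 one of 4.21 without d3 replicate 1.

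Markers of other tissue that a callus can hold were counted in the same way, beside 15.2% of all genes called higher and 14.1% called lower. None of 15 erythroid genes was called by edgeR or by DESeq2, and 0 had an unadjusted edgeR p under 0.05. Their median was −1.22, and the summed level was 2858, 6440 and 1025 CPM on d3 and 609.6, 5879 and 1725 CPM on d10. Without d10 replicate 2, 6 erythroid genes were called lower, without d3 replicate 2, 1 was called higher and none lower, and with a block on replicate number 3 were called lower. Of 12 platelet and megakaryocyte genes, 9 were called lower, with a median of −2.42. Pf4, platelet factor 4, was at 184, 215 and 243 CPM on d3 and 17.3, 59.1 and 38.6 CPM on d10 (log2 fold change −2.48 ± 0.33, edgeR adjusted p = 0.000584), with separate groups. The platelet count fell to 2 without d3 replicate 2 and to 4 without d10 replicate 3. Of 15 adipocyte genes, 3 were called lower, none higher, and Fabp4, a fatty acid carrier, was not called, at 96.7, 119 and 166 CPM on d3 and 60.8, 152 and 148 CPM on d10. Of 14 Schwann cell and nerve genes, 4 were called higher and 1 lower. Ncmap, a protein of noncompact myelin, was at 0.409, 0.484 and 0.989 CPM on d3 and 61.4, 17.4 and 15.8 CPM on d10 (log2 fold change 5.64 ± 0.86, edgeR adjusted p = 0.00109). Without d3 replicate 2, 1 nerve gene was called higher and none lower. Ncmap had a log2 fold change of 4.72 without d10 replicate 1.

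Progenitor and growth factor genes were mixed, and their counts stand beside 15.2% of all genes called higher and 14.1% called lower. Of 20 skeletal progenitor and niche genes, 5 were called higher and 6 lower, with a median of 0.12. This list shares Ctsk, Gli1, Prg4 and Acta2 with lists already described. Scx, a transcription factor of tendon progenitors, was at 44.5, 22.7 and 24.2 CPM on d3 and 9.26, 13 and 12.4 CPM on d10 (log2 fold change −1.39 ± 0.25, edgeR adjusted p = 0.00227). Tnmd, a membrane protein of mature tendon, was at 4.15, 7.54 and 8.75 CPM on d3 and 27.4, 39.3 and 30.1 CPM on d10 (log2 fold change 2.24 ± 0.31, edgeR adjusted p = 0.000636). The groups did not overlap for either, and they moved in opposite directions. Of 41 growth factor signalling genes, 12 were called higher and 3 lower, with a median of 0.36. Mdk, the heparin-binding growth factor midkine, was at 19.6, 18.8 and 23.1 CPM on d3 and 152, 119.7 and 97.5 CPM on d10 (log2 fold change 2.59 ± 0.19, edgeR adjusted p = 1.72e-05). Wnt4, a Wnt ligand, was at 6.43, 9.34 and 17 CPM on d3 and 99.1, 48.2 and 46.4 CPM on d10 (log2 fold change 2.56 ± 0.40, edgeR adjusted p = 0.00123). Frzb, a secreted Wnt antagonist of cartilage, changed by 2.94 ± 0.54, while its relative Sfrp1 was at 116, 58.6 and 189 CPM on d3 and 6.36, 14.02 and 14.8 CPM on d10 (log2 fold change −3.37 ± 0.49, edgeR adjusted p = 0.000815). Bmp4 and Bmp6, ligands of bone morphogenetic protein signalling, rose by 1.7 ± 0.26 and 2.12 ± 0.44. Without d10 replicate 3, 13 growth factor genes were called higher and 7 lower, without d3 replicate 1, 4 progenitor genes were called higher and 3 lower, and without d3 replicate 2, 3 and 6. Frzb had a log2 fold change of 2.28 and Bmp6 one of 1.37 without d10 replicate 1.

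The 12 largest fitted increases among called genes whose d3 and d10 values did not overlap, at a mean of 1 CPM or more over the 6 libraries, were those of Col10a1, Snorc, Foxa3, Ppp1r1b, Epyc, Cryba2, Ucma, Matn1, Meltf, Clec3a, Cytl1 and Cnmd. Of these, 7 belong to the cartilage lists, and Ppp1r1b, Cryba2, Meltf, Clec3a and Cytl1 belong to no list. Ucma, a secreted protein of growth plate chondrocytes, was at 0.468, 0.173 and 0.148 CPM on d3 and 173, 40.8 and 22.3 CPM on d10 (log2 fold change 8.28 ± 1.1, edgeR adjusted p = 0.000561). Cnmd, chondromodulin, an inhibitor of vessel growth in cartilage, was at 2.92, 0.622 and 0.643 CPM on d3 and 566, 226 and 139 CPM on d10 (log2 fold change 7.87 ± 1.05, edgeR adjusted p = 0.000558). Both were highest in d10 replicate 1, and no d3 library came near the d10 range. Ppp1r1b, an inhibitor of protein phosphatase 1, was at 0, 0.0346 and 0.148 CPM on d3 and 65.3, 13.7 and 9.29 CPM on d10 (log2 fold change 8.77 ± 1.27, edgeR adjusted p = 0.000848). Epyc, a small proteoglycan of cartilage, had 1 count over the d3 libraries and 455 over the d10 libraries, a ratio of 637 (95% counting interval 114 to 25204). It overlaps Gm10754 on the opposite strand, so its reads are uncertain. Cryba2, a crystallin, had 0 counts on d3 and 119 on d10, which made it at least 55.5-fold higher when the d3 group was set to a floor of 3 counts. The fitted log2 fold changes of Epyc, Meltf, Clec3a and Cytl1 were 8.76, 8.04, 7.95 and 7.88. Ucma had a log2 fold change of 6.96, Cnmd one of 7.13, Ppp1r1b one of 7.42, Epyc one of 7.76, Meltf one of 6.65 and Cytl1 one of 6.95 without d10 replicate 1. Cnmd had a log2 fold change of 8.92, Epyc one of 10.47, Meltf one of 9.08 and Clec3a one of 12.83 without d3 replicate 1. Clec3a had a log2 fold change of 7.19 without d3 replicate 2. Ppp1r1b had a log2 fold change of 10.02 and Cytl1 one of 10.07 without d3 replicate 3.

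Under the same limits on call, overlap and mean level, the 12 largest fitted decreases were those of Arg1, Serpina3m, Cxcl5, Cyp26a1, Reg3g, Syt13, the gene with identifier ENSMUSG00000084956, Masp1, Saa3, BC100530, Acod1 and Hgf. Cyp26a1, the enzyme that degrades retinoic acid, was at 5.49, 5.12 and 6.23 CPM on d3 and 0, 0.204 and 0.119 CPM on d10 (log2 fold change −5.64 ± 0.55, edgeR adjusted p = 9.55e-05). Reg3g, an antibacterial lectin, was at 6.25, 6.64 and 5.78 CPM on d3 and 0.504, 0.068 and 0 CPM on d10 (log2 fold change −4.98 ± 1.04, edgeR adjusted p = 0.00504). Hgf, hepatocyte growth factor, was at 3.39, 3.29 and 1.14 CPM on d3 and 0.252, 0.068 and 0.0596 CPM on d10 (log2 fold change −4.29 ± 0.63, edgeR adjusted p = 0.000876). These were low on d3 and close to 0 on d10 in every library. Saa3, an acute phase protein made at sites of inflammation, changed by −4.37 ± 0.56. Serpina3m, a serine protease inhibitor, had 139 counts on d3 and 1 on d10, a ratio of d3 to d10 of 99.3 (95% counting interval 17.5 to 3951). BC100530 is near-identical to a neighbouring stefin gene, so its reads are uncertain. The fitted log2 fold changes of Serpina3m, Syt13 and ENSMUSG00000084956 were −6.29, −4.89 and −4.61. Reg3g had a log2 fold change of −7.33, Hgf one of −5.21 and Syt13 one of −6.68 without d10 replicate 1. Cyp26a1 had a log2 fold change of −6.39 and ENSMUSG00000084956 one of −5.65 without d10 replicate 2. Serpina3m had a log2 fold change of −8.34 without d10 replicate 3. ENSMUSG00000084956 had a log2 fold change of −3.94 without d3 replicate 2.

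The days between placed these changes in time, as a description without a test. The cartilage collagens had a median log2 fold change from d3 of 4.23 on d5, 5.11 on d7 and 6.90 on d10. The bone matrix list stood at 0.32, 0.84 and 1.48, and the osteoclast list at 0.47, 0.54 and 1.11. The median of the cartilage collagens thus changed more before d5 than after it, and those of the bone matrix and osteoclast lists changed more after d5 than before it. Neutrophil genes stood at −0.94, −0.73 and −2.33, and cell cycle genes at −0.75, −0.67 and −1.45. Interferon-induced genes stood at 0.44 on d5, 0.06 on d7 and −0.95 on d10, and muscle regeneration genes at 1.46, −0.71 and −2.14. For the last pair of lists the d5 median was above d3 and the d10 median below it. The summed level of the muscle regeneration genes ran from 247 to 2019 CPM over the d5 libraries. That range overlapped the 211.5 to 681.7 CPM of the d3 libraries. The summed interferon level was 1017 to 1199 CPM on d5 and 711 to 959 CPM on d3, without overlap.

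**Figure D4:**
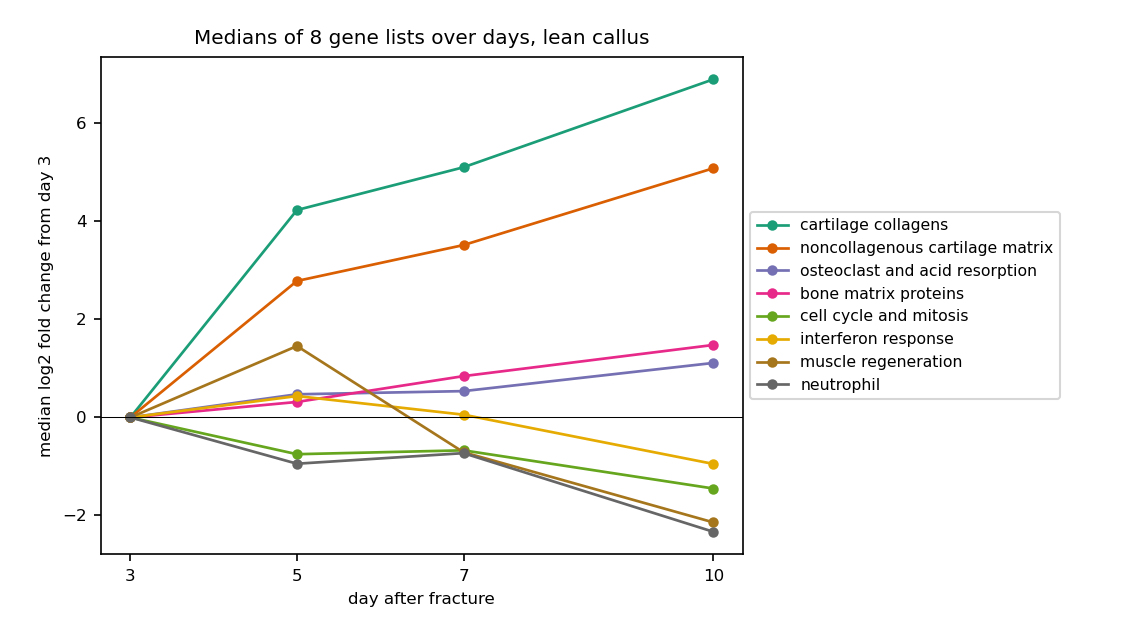
Median log2 fold change from d3 (vertical axis) on d3, d5, d7 and d10 for 8 lists in the lean callus. The cartilage collagens stand at 4.23 on d5 and 6.90 on d10, and the muscle regeneration list goes from 1.46 on d5 to −2.14 on d10.

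The same interval in DIO callus gave the comparison for diet, with the interaction of diet and day fitted over the 24 libraries of both diets on d3, d5, d7 and d10. Of 17057 genes tested, 1 was called, Mrgprf, which is 0.00586% of genes, and 3114 had an unadjusted p under 0.05. By DESeq2, 473 genes were called for the same interaction. Mrgprf, an orphan receptor of the Mas-related family, was at 15.9, 10.2 and 14.7 CPM on d3 and 20.1, 6.94 and 11.8 CPM on d10 in lean callus. In DIO callus it was at 27.3, 21.0 and 20.0 CPM on d3 and 3.52, 4.78 and 4.28 CPM on d10. The groups overlapped in lean callus and were separate in DIO callus. The difference of log2 fold changes, lean minus DIO, was 2.37 ± 0.37 (edgeR adjusted p = 0.0479). It was called without lean d10 replicate 2 (edgeR adjusted p = 0.000533) or lean d10 replicate 3 (0.0174), and not without any of the other 10 libraries of d3 and d10 (0.0563 to 0.14). The other 9 genes with the smallest p, among them Igfn1 and Col8a2, had an adjusted p of 0.0711. Without lean d10 replicate 2, 451 genes were called for the interaction, without lean d10 replicate 3, 443, and none without any of the other 10 libraries.

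The list medians of the lean and the DIO callus came from that fit, and the difference between diets was not tested for any list. The cartilage collagens had a median of 6.89 in lean and 3.09 in DIO callus, and the median of the gene-by-gene differences, lean minus DIO, was 2.94. The neutrophil genes had medians of −2.36 and 0.19, with a median difference of −2.66. Lists with a median difference under 0.5 on either side of 0 included the bone matrix genes (medians 1.47 and 1.27, median difference 0.20), the inflammatory cytokines (−1.07, −1.06 and −0.21) and the muscle regeneration genes (−2.15, −2.29 and 0.30). Osteoclast genes were also of this kind, with a median difference of −0.07, although the list medians were 1.10 in lean and 2.25 in DIO callus. T and NK cell genes had medians of 0.24 and 2.25 and a median difference of −1.94. Erythroid genes had medians of −1.26 and 2.37 (median difference −4.11) and B-lineage genes −0.28 and 2.90 (−3.4). In this fit the 2 diets thus stood on opposite sides of 0 for both lists. In the fit of the lean libraries alone, the lean B-lineage median was 1.07 without d3 replicate 2 and 0.23 without d10 replicate 1. The lean erythroid median was −0.16 and −0.64 with the same libraries left out. The sign of the lean B-lineage median thus rested on single libraries.

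**Figure D5:**
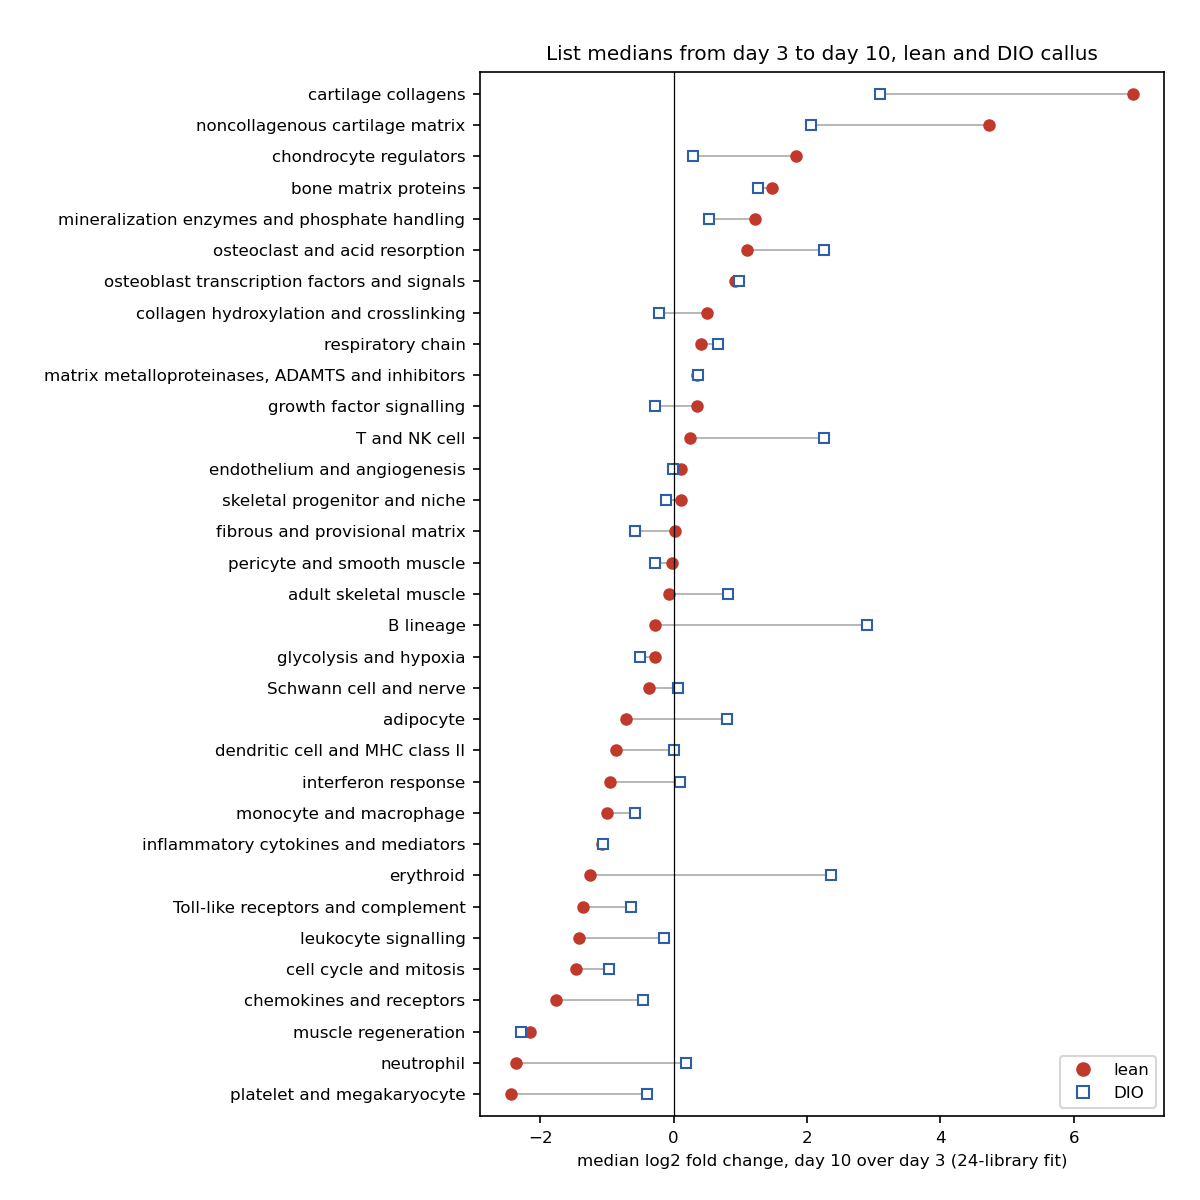
Median log2 fold change from d3 to d10 of each list in lean (circle) and DIO callus (square), from the fit of 24 libraries. The bone matrix medians lie at 1.47 and 1.27, and the neutrophil medians at −2.36 and 0.19.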

How the data were processed

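Per the labels and the study's methods, the authors prepared stranded polyA-selected libraries, trimmed the reads with BBDuk, aligned them to GRCm38 with HISAT2 2.1.0 and counted them per gene with HTSeq. They deposited whole-number read counts for 43629 genes in 30 libraries, of which 42548 were found in GENCODE M21. The strand setting and annotation of the counting are not given in the sources used here, so reads of overlapping and antisense genes are uncertain, as are those of genes that share at least 100 bases at 95% identity (BLAST 2.17.0).

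Groups came from the labels. Lean d10 was set against lean d3 (3 mice each) in 1 edgeR 4.0.16 quasi-likelihood fit (R 4.3.3) of the 12 lean libraries of d3, d5, d7 and d10, so that the 4 days shared the estimate of spread. TMM factors, filterByExpr and Benjamini-Hochberg adjustment over all 16471 genes kept were used. The interaction with diet was fitted the same way in the 24 libraries of both diets on those days. A fold against a group with 0 counts was computed against a floor of 3 counts over the group, and intervals on counts cover counting error only. A prior count of 2 went into the log2 CPM behind the principal components.

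The comparison and the 33 gene lists were chosen with earlier results of these data known. Named genes were a core set, the 4 smallest and 2 largest p of each list (the largest among genes with a mean of at least 1 CPM), the 12 largest increases and decreases among called genes with separate groups, and the 10 smallest interaction p, 335 in all. A further 17 were named after their values were seen: Ptch1, Pth1r, Pthlh, Notum, Sost, Mmp2, Ccl9, C1ra, Ifit1, E2f8, Hif1a, Wnt4, Frzb, Bmp6, Il11, Calcr and Foxa2. Some genes that the rule named are not reported here. Promoter windows came from RefSeq (GRCm38.p6). Alternatives were other normalizations, filters, sets of libraries, a 1.5-fold threshold, DESeq2 1.42.0, a block on replicate number and leaving out each library. On simulated counts with 200 changed genes among 16223, edgeR found 91 of 110 4-fold and 27 of 85 2-fold changes with 3 false calls among 121. DESeq2 found 99 and 44 of them with 31 false calls among 174. Far fewer genes were changed there than were called in the data, so these rates do not carry over to the data.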

Additional observations from a re-analysis of the deposited data

Results flagged for a closer look

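Mrgprf, an orphan receptor of the Mas-related family, was the gene whose change from d3 to d10 differed between the diets by the interaction test, with a difference of log2 fold changes, lean minus DIO, of 2.365 (standard error 0.3735, edgeR adjusted p = 0.04786). In the fit of 24 libraries its log2 fold change was −0.07 in lean and −2.43 in DIO callus, where all 3 d10 libraries lay below all 3 d3 libraries. The call held with RLE factors (edgeR adjusted p = 0.0482), upper-quartile factors (0.04242), the 1 CPM filter (0.04734), no filter (0.004219), the replicate block (0.03988) and DESeq2 (DESeq2 adjusted p = 1.631e-05). It was lost with the 1.5-fold threshold (edgeR adjusted p = 0.1459), with the 12 libraries of d3 and d10 (0.1959) and with all 30 libraries (0.09326), as well as without any 1 of 10 of the 12 libraries compared. Over all of these settings the difference lay between 1.91 and 2.67.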

How the results depend on the processing

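Of the 4825 genes called between lean d10 and d3, 0 were called in the opposite direction under any of 15 alternatives. A test against a 1.5-fold change called 1448 (634 higher, 814 lower), and a fit of the 6 libraries of the 2 days alone called 2926 (1493 higher, 1433 lower), with fewer samples behind the spread. With 1 library left out, the count ran from 2863 (without d3 replicate 2) to 5016 (without d10 replicate 3), with 1429 to 2553 higher and 1434 to 2463 lower, and it was 3342 without d3 replicate 1 (1637 higher). The other alternatives gave 4387 to 5523. No scaling moved the median of all genes by more than 0.1.

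The interaction count of 1 was less stable. It was 473 by DESeq2 (250 higher in lean, 223 lower), 85 with no filter (59 and 26), and 0 with the 1.5-fold threshold, with the 12 libraries of d3 and d10, and with all 30. With 1 library left out it ran from 0 to 451, with 0 to 324 higher and 0 to 232 lower, the high values being those without lean d10 replicate 2 or 3. The cause was not tested.

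Same-numbered lean libraries of d3 and d10 correlated at 0.239, 0.327 and −0.000775 in their deviations from the group means, so the numbers were not taken as pairs. With a replicate block, 5277 genes were called between days, 4679 of the 4825 among them, and 2 for the interaction, both higher in lean.

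Among 352 named genes and 5278 refitted values, 0 called genes changed sign, 261 values were no longer called and 55 became called. Of 495 list medians 18 moved by more than 1 SD between replicates, and of 990 list counts 130 moved by over 1.5 times. Calls in lists rich in neutrophil, erythroid and platelet genes rested on few libraries. With 3 mice a day, a gene that missed the threshold is not shown to be unchanged.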

Other observations

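Beyond Mrgprf, the interaction ranked Igfn1, a muscle protein, next by p, with a log2 fold change of 1.53 in lean and −2.65 in DIO callus (difference 4.18, edgeR adjusted p = 0.0711). At the same adjusted p stood Col8a2, a collagen VIII chain (difference 1.3), Megf6 (1.72), C130021I20Rik (2.45), Sqor, a mitochondrial sulfide oxidase (−1.6), and Isca2, an iron-sulfur assembly protein (−0.80). None of these passed the threshold.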
